A study of Homo sapiens with 12 samples.

Results

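Of the 26588 H3K27ac regions that lay over a transcript start in vehicle-treated HCC70 cells, 9633 overlapped neither an SREBP2 nor a RORγ region. These acetylated promoters without either factor are the subject here. They made up 36.2% of acetylated promoters (exact 95% interval 35.7 to 36.8) and were found among 95099 H3K27ac regions on chromosomes 1 to 22 and X. A region counted as a promoter when it overlapped a window that begins 1000 bp before a GENCODE transcript start (hg19) and ends 100 bp after it. Of the other acetylated promoters, 13693 (51.5%) overlapped both factors, 2829 (10.6%) SREBP2 only and 433 (1.63%) RORγ only. The co-bound promoters, those with both factors, serve as the main comparison below.

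HCC70 is an established line of human triple-negative breast cancer, grown here in medium with serum. Cells received vehicle or XY018, a small-molecule antagonist of RORγ, at 5 µM for 24 h, and both groups were otherwise the same cells. Chromatin was immunoprecipitated with antibodies to H3K27ac, SREBP2 or RORγ, with 1 library for each antibody and treatment, and the deposited peak list of each of these 6 libraries was used. With 1 library per group no difference between treatments has a replicate check, no p-value was computed, and the intervals given cover counting error only. The membership was fixed by the 3 vehicle lists, so vehicle levels and the absence of factor calls with vehicle are given as a description.

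Acetylation of lysine 27 of histone H3 marks nucleosomes beside active promoters and enhancers. RORγ is a nuclear receptor that binds as a monomer to the RORE, a receptor half-site with an A/T-rich 5′ extension. SREBP2 is released from membranes when sterols are low and binds the sterol regulatory element (SRE), often beside NF-Y at CCAAT boxes and SP factors at GC boxes, to turn on genes of cholesterol synthesis and uptake.

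Promoter sequences of both groups are shown here as examples, and the comparison of base composition over all starts is given further on. The examples overlap in GC content, which was 65.8% at FAM83E and 69.1% at ARPC3, without either factor, and 61.7% at HNRNPL, with both. Each is read in the direction of transcription, from 130 bases before the start to 20 after it, and ends earlier where annotated untranslated sequence reaches further upstream. The start used is the protein-coding one nearest to the summit. For FAM83E, ARPC3, HNRNPL, ATP6V0C, XBP1 and ATP1B1 it is not the Ensembl canonical start of the gene. Bases are from the GRCh37 reference, which is the hg19 build, and capitals mark matches to 10 motifs searched on both strands. The motifs were the SRE (TCACNCCAC), the RORE core, the receptor half-site (AGGTCA), the E-box (CACGTG), the GC box (GGGCGG), the CCAAT box (CCAAT), the TATA box (TATAAA), AP-1 (TGANTCA), ETS (CCGGAAG) and NRF1, the last by its usual core. The RORE core contains a half-site or one base different from it, so these matches overlap. A match is a string of letters in a window and not evidence of binding. First come the 3 promoters without either factor that had the highest vehicle H3K27ac fold, the pileup at the summit over the local background.
CDC5L, chr6:44355313-44355462, plus strand: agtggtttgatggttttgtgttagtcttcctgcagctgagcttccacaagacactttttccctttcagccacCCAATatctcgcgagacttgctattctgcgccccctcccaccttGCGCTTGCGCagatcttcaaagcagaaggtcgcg
FAM83E, chr19:49118086-49118202, minus strand: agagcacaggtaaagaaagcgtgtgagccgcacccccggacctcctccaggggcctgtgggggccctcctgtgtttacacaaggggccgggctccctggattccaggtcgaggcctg
ARPC3, chr12:110888123-110888203, minus strand: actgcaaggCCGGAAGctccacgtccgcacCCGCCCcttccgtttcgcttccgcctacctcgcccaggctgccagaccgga

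Next come the 3 co-bound promoters with the highest fold, for contrast. HNRNPL encodes a splicing regulator, ATP6V0C a subunit of the vacuolar proton pump and XBP1 a factor of the unfolded protein response. All 3 carried a GC box in this window.
HNRNPL, chr19:39342968-39343095, minus strand: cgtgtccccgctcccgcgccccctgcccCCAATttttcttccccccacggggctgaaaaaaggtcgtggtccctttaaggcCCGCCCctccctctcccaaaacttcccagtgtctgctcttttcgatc
ATP6V0C, chr16:2564165-2564314, plus strand: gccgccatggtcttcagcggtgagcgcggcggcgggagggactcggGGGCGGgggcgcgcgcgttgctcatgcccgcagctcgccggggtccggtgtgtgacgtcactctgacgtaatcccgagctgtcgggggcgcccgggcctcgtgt
XBP1, chr22:29196102-29196251, minus strand: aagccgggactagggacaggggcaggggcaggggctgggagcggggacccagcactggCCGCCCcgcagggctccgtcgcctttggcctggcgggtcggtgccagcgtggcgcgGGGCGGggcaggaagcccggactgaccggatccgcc

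The last 6 are promoters without either factor that show a motif or gene group taken up below. ATP1B1 and S100A4 had the highest fold among those with an SRE or a RORE in this window. S100A7, S100A9, H2AC15 and PSMB2 stand for gene lists and were chosen after their values were seen.
ATP1B1, chr1:169085359-169085508, plus strand: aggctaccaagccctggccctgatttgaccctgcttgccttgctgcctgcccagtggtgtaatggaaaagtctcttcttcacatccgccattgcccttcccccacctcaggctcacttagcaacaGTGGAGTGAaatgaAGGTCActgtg
S100A4, chr1:153518263-153518412, minus strand: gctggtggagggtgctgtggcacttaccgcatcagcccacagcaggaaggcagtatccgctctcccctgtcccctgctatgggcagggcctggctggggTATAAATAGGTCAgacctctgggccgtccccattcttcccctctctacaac
S100A7, chr1:153433108-153433257, minus strand: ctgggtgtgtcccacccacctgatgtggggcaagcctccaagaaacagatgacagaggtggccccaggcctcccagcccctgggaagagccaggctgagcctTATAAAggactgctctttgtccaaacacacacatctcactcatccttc
S100A9, chr1:153330200-153330349, plus strand: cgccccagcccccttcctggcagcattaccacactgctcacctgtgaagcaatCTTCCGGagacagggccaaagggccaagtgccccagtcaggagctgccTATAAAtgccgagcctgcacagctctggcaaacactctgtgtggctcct
H2AC15, chr6:27806134-27806283, minus strand: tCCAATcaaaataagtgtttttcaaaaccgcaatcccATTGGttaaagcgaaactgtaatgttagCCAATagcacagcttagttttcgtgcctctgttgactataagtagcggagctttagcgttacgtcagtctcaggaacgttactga
PSMB2, chr1:36107108-36107257, minus strand: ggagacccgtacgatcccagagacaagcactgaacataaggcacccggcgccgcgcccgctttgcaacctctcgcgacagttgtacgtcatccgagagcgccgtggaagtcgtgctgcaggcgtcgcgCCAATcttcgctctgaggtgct

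In S100A4, which encodes a calcium-binding protein of motile cells, the RORE match began 28 bases before the start, inside the TATA box that began 31 bases before it. The TATA boxes of S100A7 and S100A9 began 28 and 29 bases before the start. H2AC15, a histone H2A gene, had 3 CCAAT boxes in this window, at 129, 93 and 65 bases before the start. The SRE and RORE matches above lay in regions with no factor call by the rule itself.

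With vehicle, the regions were weaker and shorter than co-bound promoters. Their median fold was 5.99 (quartiles 4.69 and 7.83), with 15 fragments at the summit and a width of 511 bp. Co-bound promoters had a median fold of 20.8, 52 fragments and a width of 977 bp. Only 57 regions without either factor (0.592%) exceeded the co-bound median fold. These values describe regions chosen by the vehicle calls and are not a test.

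The label was checked against distances to the factors. The median distance to the nearest vehicle factor region was 2220 bp. A factor region lay within 500 bp of 20.2% of regions and within 1 kb of 33.6%. In 24.3% a factor region lay inside the promoter window of one of the region's own starts, but beside the acetylated stretch. SREBP2 was the nearer factor at 60% and RORγ at 39.9%. Thus 7295 regions had no factor call anywhere in their start windows, and 3028 (31.4%) had none within 5 kb. At the edge of the rule, regions over UBE4B, a ubiquitin ligase gene, and UPK3B, a uroplakin gene, were included although an SREBP2 region began at the very next base. Regions over TIPIN, a replication fork protein gene, and DNAAF11 were left out for an SREBP2 overlap of 1 bp and 2 bp.

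The H3K27ac summits were also placed differently (the plot of summit positions). The median distance from the summit to the nearest start was 422 bp, against 160 bp at co-bound promoters. The summit lay downstream of that start in 29.7% of regions and in 57.9% of co-bound ones. It lay within 200 bp in 27.3% and 59.5%. The promoter window itself reaches further upstream than downstream, for both groups alike. A protein-coding start was present in 76.2% of regions against 89.6% of co-bound promoters, and the Ensembl canonical start of a protein-coding gene in 32.1% against 64.2%. Another 16.1% covered a lncRNA start and no protein-coding one (co-bound 7%). Among chromosomes, the share of acetylated promoters without either factor ran from 24.4% on X to 44.5% on chromosome 1.

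**Figure D1:**
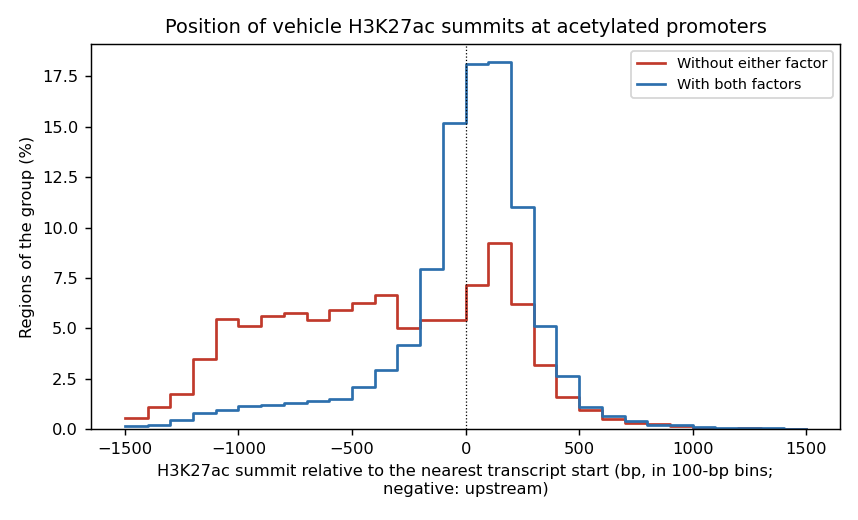
Position of the vehicle H3K27ac summit relative to the nearest transcript start, in bins of 100 bp, as the percent of the 9633 promoters without either factor (red) and of the 13693 co-bound promoters (blue); negative positions are upstream. Co-bound summits gather around the start, with 18.2% in the bin from 100 to 200 bp downstream against 9.26% of those without either factor, whose summits spread over the upstream window.

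Base composition around the start nearest to each summit was then compared, over 500 bp to either side. The median GC content was 52.4% (quartiles 46.4 and 57.3) against 65.9% at co-bound promoters. A CpG-rich window, with GC over 50% and an observed to expected CpG ratio over 0.6, surrounded 26.4% of these starts (25.5 to 27.3) and 73.2% of co-bound ones (72.4 to 73.9). Within 10 equal-sized classes of vehicle fold, GC was lower by 11.7 points (95% interval of the difference -11.9 to -11.4). The CpG-rich share differed in the same comparison by -20.6 points (-22.4 to -18.8). At canonical protein-coding starts alone, 71.0% and 92.4% were CpG-rich, against 65.1% of all 19819 such starts in the genome. Of the 7092 regions whose nearest start was not CpG-rich, 15.2% covered a canonical protein-coding start.

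Of the 10 motifs, 6 were more frequent than at co-bound promoters (the plot of motif shares). A TATA box was found near 32.6% of starts against 11.5%, an AP-1 site near 26.5% against 11.3%, a CCAAT box near 70.0% against 51.3% and a receptor half-site near 52.1% against 35.3%. A match to the SRE was present near 7.41% of starts (6.90 to 7.95) and 4.32% of co-bound ones, and to the RORE core near 2.76% (2.44 to 3.11) and 1.13%. Over all starts, matches to the SRE, the RORE core and the half-site were thus more frequent where neither factor was called. The E-box was less frequent there, at 15.8% against 21.9%. The match rates expected from the base composition, which differed between the groups, were not computed. The GC box was less frequent, at 48.1% against 91.3%.

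At canonical protein-coding starts most of these gaps were smaller. The TATA box was then found near 21.6% of starts without either factor, 11.2% of co-bound ones and 23.2% of all canonical starts. The CCAAT box was found near 71.4%, 53.9% and 63.7%, in the same order, the half-site near 40%, 30% and 36.5%, and AP-1 near 16%, 9.67% and 15.2%. The GC box was found near 80.6%, 97.6% and 77.0%, and the RORE core near 1.81%, 0.887% and 1.59%. The SRE was found near 4.30%, 3.65% and 4.30%. Within classes of vehicle fold the SRE difference at canonical starts was 0.999 points with an interval of -0.0883 to 2.09, so it was not separated from 0.

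ETS, the site of a factor family common at housekeeping promoters, changed order with the choice of start and with the comparison within fold classes. It was less frequent near starts without either factor over all starts, 16.5% against 21.7%, and more frequent at canonical protein-coding starts, 35.3% against 25%, with 22.4% at all canonical starts. Within fold classes it was more frequent over all starts too, by 2.13 points (0.821 to 3.45), and by 19.5 points at canonical starts (17.2 to 21.9). NRF1, a factor that drives nuclear genes for mitochondrial proteins, had matches near 5.12% against 10.3% over all starts and 14.4% against 15% at canonical ones. Within fold classes both differences turned positive, to 0.805 points (0.0751 to 1.53) over all starts and 5.79 points (4.07 to 7.51) at canonical ones. The E-box was found near 15.8% against 21.9%, and near 20.1% against 21.4% at canonical starts.

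**Figure D2:**
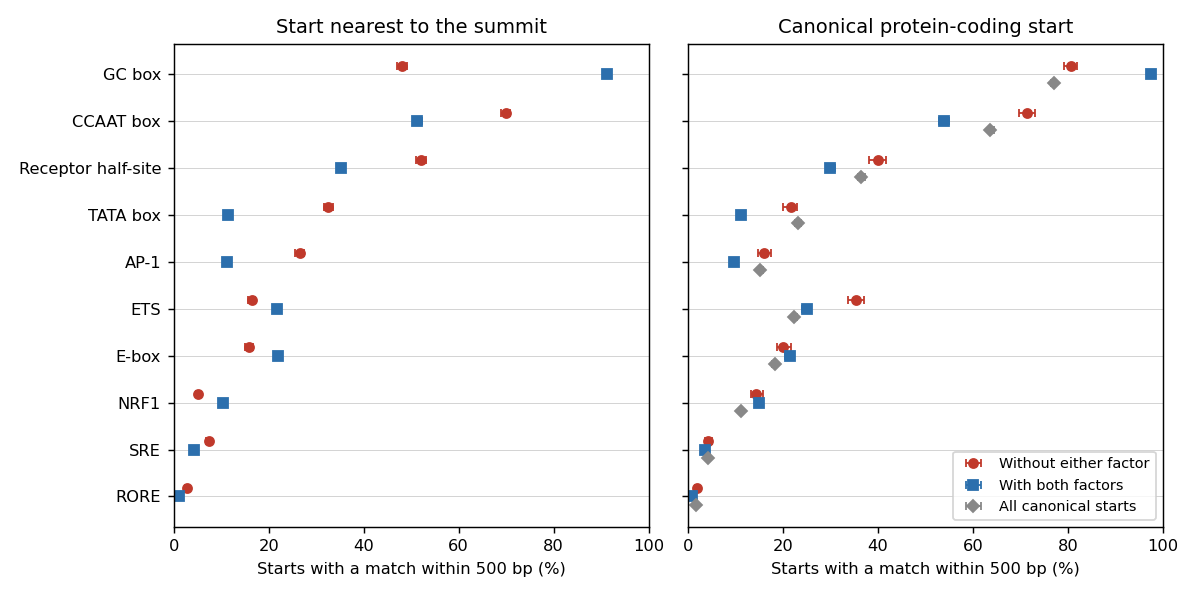
Percent of transcript starts with at least 1 match within 500 bp, for promoters without either factor (red circles), co-bound promoters (blue squares) and, at right, all canonical protein-coding starts (grey diamonds), with exact 95% intervals that are often narrower than the symbol. At left the start nearest to the summit was used, and at right canonical protein-coding starts only, where ETS changes order in these shares without fold classes, from 16.5% and 21.7% to 35.3% and 25%.

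Which genes relied on such promoters was asked with 16 gene lists. A gene was counted when it had acetylated regions over its starts and none of them overlapped a factor, which held for 1611 of 13424 acetylated protein-coding genes (12.0%). This state follows from the rule and is described without a test. A further 3482 genes were mixed, with regions without either factor beside acetylated promoter regions that overlapped one. Of the 7336 regions over a protein-coding start, 2192 lay at genes in the counted state. Genes with many annotated starts have more chances to hold a factor call, so the canonical start was also used alone, giving 1582 of 12481 (12.7%).

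Replication-dependent histone genes stood highest. They are expressed in S phase, lie in clusters and mostly have 1 annotated start. Of 46 with acetylation, 36 (78.3%, 63.6 to 89.1) had no factor at any acetylated promoter, and 33 of these had none anywhere in the start window. Their 38 distinct regions, 35 of them on chromosome 6, had 10 to 51 fragments and lay a median of 6300 bp from the nearest factor region. Some of these genes share a region, while the interval counts each gene as independent and is therefore too narrow. H4C5, a histone H4 gene, had the most, with 51 fragments with vehicle and 39 with XY018, at 5495 bp from SREBP2. Only uniquely placed tags were counted, so values at near-identical histone copies are uncertain for all antibodies.

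Epithelial differentiation genes of the S100, cornified envelope and kallikrein list followed, with 11 of 17 (64.7%, 38.3 to 85.8): KLK5, KLK6, KLK8, PI3, S100A4, S100A7, S100A8, S100A9, S100A14, S100A16 and SLPI. S100A9, a subunit of calprotectin, had 86 fragments with vehicle (68.8 to 106) and 91 with XY018 (73.3 to 112) at chr1:153328688-153330133, in its upstream region. S100A7, psoriasin, had 52 and 33 fragments just upstream of its start and lay 11811 bp from the nearest RORγ region. S100A16 reached 86 and 113 fragments. The S100 genes of this list are neighbours on chromosome 1, and some share wide XY018 regions.

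Interferon-stimulated genes gave 10 of 21 (47.6%, 25.7 to 70.2), among them IFI27, IFI44L, IFIT3, IRF9, OAS1 and STAT2. IFIT3, whose product binds viral RNA with its relatives, lay 67091 bp from SREBP2 and 80650 bp from RORγ and had 23 fragments with vehicle and 15 with XY018. Basal epithelial markers gave 7 of 17 (41.2%, 18.4 to 67.1): KRT5, KRT16, KRT17, LAMB3, S100A2, TP63 and TRIM29. KRT5, the basal keratin, had 33 fragments with vehicle and 22 with XY018, and S100A2 had 64 and 62. All 14 acetylated genes of the luminal list had a factor at 1 or more acetylated promoters, a share of 0 that allows up to 23.2%. Of these 14, 8 were mixed, as were 5 of the 17 basal genes. By canonical starts alone, 1 of 13 (7.69%) was without either factor. Both lists were largely acetylated, 17 of 22 basal and 14 of 18 luminal genes, so acetylation did not set the basal list apart from the luminal one in this line.

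Housekeeping lists lay between. Mitochondrial ribosomal protein genes gave 27 of 69 (39.1%) and cytosolic ones 26 of 77 (33.8%). The proteasome gave 14 of 43 (32.6%) and oxidative phosphorylation 25 of 80 (31.2%), beside 12.0% of all acetylated protein-coding genes. RPL37, a large-subunit protein gene, had 83 fragments with vehicle and 72 with XY018, and PSMB2, a proteasome subunit gene, had 57 and 67. Zinc finger genes named ZNF gave 46 of 318 (14.5%) and cell cycle genes 4 of 24 (16.7%). The 4 were AURKA, AURKB, CCNB1 and CCNB2, kinases and cyclins of mitosis. CCNB1, with an SREBP2 region 10 bp away, had 25 fragments with vehicle (16.2 to 36.9) and 10 with XY018 (4.80 to 18.4), and CCNB2 had 35 (24.4 to 48.7) and 16 (9.15 to 26.0). AURKB had 17 and 18 at one region and 12 and 15 at the other, and AURKA had 21 and 18 and, at its other region, 19 and 15.

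The lists for pathways that the factors are known for were small, with 10 to 20 acetylated genes each. Their intervals are wide, so no reading against the 12.0% of all acetylated genes was made. Of 20 acetylated cholesterol synthesis genes, 2 were without either factor (10.0%, 1.23 to 31.7): MSMO1, the C4 methylsterol oxidase, and PMVK, the phosphomevalonate kinase. Another 11 were mixed. An SREBP2 region lay 102 bp from the MSMO1 region, which had 27 fragments with vehicle and 24 with XY018, and 253 bp from a PMVK region. The PMVK regions had 47 and 28 fragments with vehicle, each paired with an XY018 summit of 32 fragments, 1533 and 2 bp away. Of the 3 regions of these genes, 1 overlapped an SREBP2 region with XY018. None of 10 other SREBP targets was without either factor, which allows up to 30.8%. Of 14 clock genes NR1D1, the gene of the repressor REV-ERBα that competes with ROR receptors for the RORE, was the only one. It lay 4288 bp from SREBP2 and 7711 bp from RORγ, with 23 fragments with vehicle and 33 with XY018. AP-1 genes gave 1 of 11 (BATF), and inflammatory genes 2 of 16 (IL18 and TNF).

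**Figure D3:**
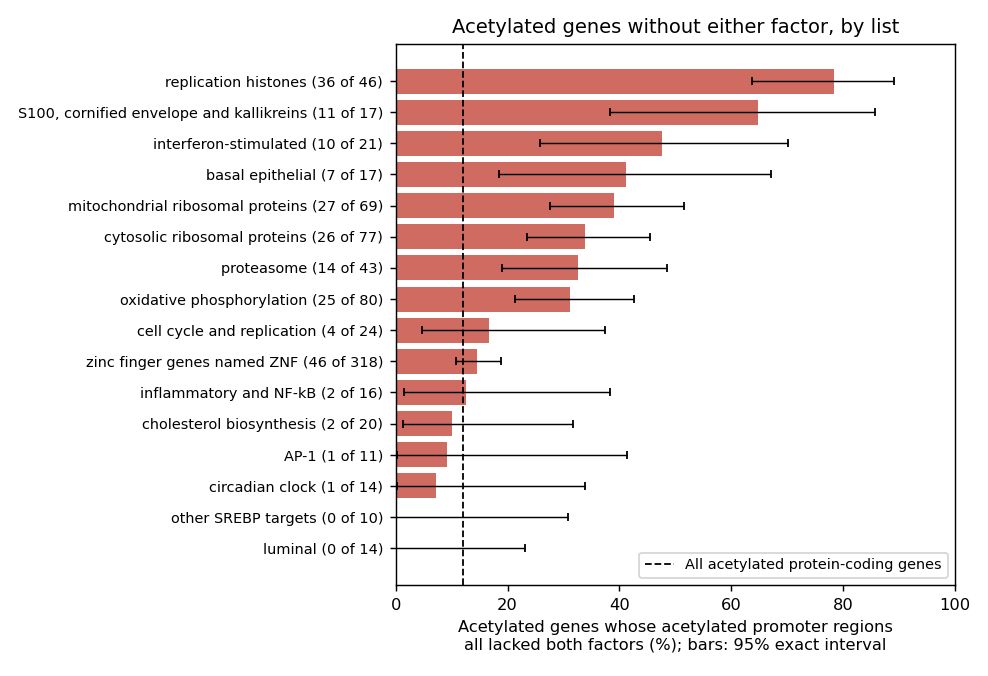
Percent of acetylated genes of each list whose acetylated promoter regions all lacked both factors, with exact 95% intervals as black bars and counts beside the list names; the dashed line marks all acetylated protein-coding genes. Replication histones reach 78.3% and the luminal and other SREBP target lists are at 0 over all starts, against 12.0% for all genes.

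Whether acetylation lasted through XY018 was examined next, with measurements that the rule did not use. Of the 9633 regions, 7159 (74.3%, 73.4 to 75.2) overlapped an H3K27ac region of the XY018 library. The background over all H3K27ac vehicle regions was 69.3%, and co-bound promoters stood at 93.4% (93.0 to 93.9). Retention followed strength. It was 53.9% at a fold under 5, 79.4% from 5 to 10 and 99.6% from 10 to 20, and all 74 regions with a fold of 20 or more were kept. Averaged within 10 equal-sized classes of vehicle fold, the difference from co-bound promoters was -0.304 points, with an interval of -1.97 to 1.36. When a region counted as kept only with an XY018 summit within 200 bp, a rule chosen after seeing the data, the difference was -3.43 points (-5.23 to -1.62), which excludes 0.

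That average hid differences between classes (the plot of retention by enrichment). In the weakest class 51.8% of regions without either factor were kept (49.6 to 54.1) against 56.8% of co-bound ones (51.8 to 61.8). Co-bound promoters stood higher in classes 1 to 3, but the intervals of the groups overlapped in each of these. In class 4, at folds of 6.31 to 7.43, regions without either factor stood higher, at 83.7% (81.8 to 85.6) against 77.6% (74.6 to 80.3). In class 5 they were at 94.0% (92.6 to 95.3) against 89.8% (87.8 to 91.5). Among regions without either factor, those with a CpG-rich start were kept in 85.0% and the others in 70.5%, and within fold classes the difference was 7.99 points (6.46 to 9.53). CpG-rich starts were also canonical protein-coding starts more often, 79.3% against 15.2%, and the part of each was not tested.

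**Figure D4:**
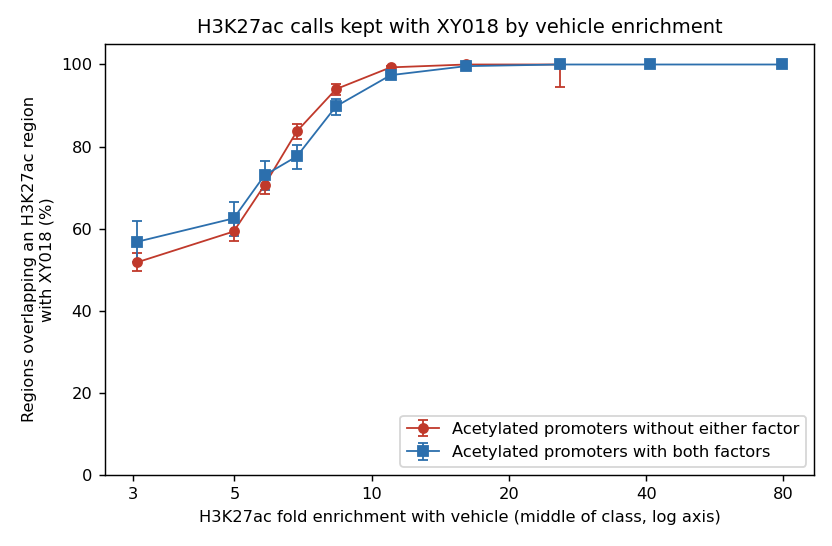
Percent of vehicle H3K27ac regions that overlapped an XY018 region, by class of vehicle fold (log axis, middle of each class), with exact 95% intervals, for promoters without either factor (red) and with both (blue); classes with under 20 regions are left out. Both curves rise from 51.8% and 56.8% in the weakest class to 100%. The drawn lines cross between classes 3 and 4, but the intervals overlap in classes 1 to 3.

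Among regions over a protein-coding start, the strongest that were lost had folds of 10.1 to 12.0. LANCL1, which encodes a glutathione-binding protein, had 25 fragments with vehicle at chr2:211341089-211341481, and ZNF397 had 32. NONO, a paraspeckle protein gene, and CLASP1, a microtubule plus-end protein gene, had 22 each, and RERG, an estrogen-regulated growth inhibitor gene, had 23. None of the 5 overlapped an XY018 H3K27ac region, and only CLASP1 had a factor within 1 kb (293 bp to SREBP2).

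Where both libraries had a call, fragments at the summit were compared after division by each library's genome-wide background, 1.17 fragments with vehicle and 1.07 with XY018. The median XY018 to vehicle ratio was 1.19 over 7159 pairs, against 1.27 over 12795 co-bound pairs and 1.15 over all 65936 pairs. A ratio of at least 1.5 was reached by 26.0% of regions without either factor (background 19.1%) and a ratio of 1/1.5 or lower by 3.10% (background 5.06%). Co-bound promoters gave 23.5% and 3.56%.

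Pairing by overlap inflated the upper end. For 20.7% of the pairs the XY018 region spanned 2 or more vehicle regions, and its summit could lie over a stronger neighbour. The largest ratios were all of this kind. The region at SBNO2, with 9 fragments, was paired with an XY018 summit of 217 fragments 1372 bp away, and that at ZPR1 (8 fragments) with 185 fragments 574 bp away. The regions at FBXO31, 2 small pieces of 11 fragments, shared 1 XY018 region of 249, and that at PYCR3, a proline synthesis gene, had 8 and 179. With summits within 200 bp of each other, 5209 pairs remained, their median ratio was 1.15, 18% were at least 1.5 times higher and 3.46% at least 1.5 times lower. Over all 51894 H3K27ac regions paired in this way the median was 1.10, with 15.4% higher and 5.36% lower. Co-bound promoters gave 1.27, with 21.6% higher and 3.51% lower. With pairs matched on the sum of both libraries' fragments, at least 40, XY018 contributed 6.18 points more of the fragments than at co-bound promoters (5.72 to 6.65) by overlap, but 1.87 points more (1.43 to 2.31) with matched summits.

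The 8 regions with the highest vehicle fold show the levels behind these numbers (the plot of named promoters). CDC5L, a spliceosome component gene, had the highest fold, 38.0, at chr6:44355162-44355995, with its summit 219 bp downstream of the start, in an intron. It had 84 fragments with vehicle (67.0 to 104) and 41 with XY018 (29.4 to 55.6). Its nearest factor regions were 3448 bp (RORγ) and 20953 bp (SREBP2) away. FAM83E had 77 and 74 fragments, ARPC3, a subunit gene of the actin-nucleating Arp2/3 complex, 67 and 68, and RBM39, a splicing factor gene, 65 and 43. RAD9A, a checkpoint clamp gene, had 67 and 54, and PSMB8, an immunoproteasome subunit gene, and ALDH3B2, an aldehyde dehydrogenase gene, had 61 and 68 each. BANP, the gene of a DNA-binding nuclear matrix protein, was the exception, with 78 and 333, its XY018 summit lying 1051 bp from the vehicle one. In FAM83E, BANP, RAD9A and PSMB8 a factor region lay in the start window beside the acetylated one.

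Among regions with at least 60 fragments in both libraries together and matched summits, over a protein-coding start, 152 of 637 (23.9%) were at least 1.5 times higher and 9 (1.41%) at least 1.5 times lower with XY018. Without the limit to protein-coding starts the shares were 23.1% and 1.37%. Co-bound promoters paired in this way, also without that limit, gave nearly the same, 23.8% and 1.13%. The background over all 14147 H3K27ac regions paired in this way was 19.8% and 2.56%. Regions that lost their call with XY018 have no ratio, so falls are under-counted in all of these. The highest ratios, listed after the matching was chosen, were at STT3A, the catalytic subunit gene of an oligosaccharyltransferase (29 to 72 fragments, ratio 2.72), FUT1, a fucosyltransferase gene (36 to 86, 2.62), LAPTM4A, a lysosomal membrane protein gene (24 to 56, 2.56), TMC5 (21 to 48, 2.50) and NFE2L1, the gene of a factor that induces proteasome genes (24 to 54, 2.46). The lowest were MAIP1, a mitochondrial protease partner gene (48 to 16, 0.365), CIC, a transcriptional repressor gene (58 to 21, 0.397), MRPS16, a mitochondrial ribosomal protein gene (58 to 27, 0.510), CDC5L (0.535) and the histone gene H2AC19 (46 to 26, 0.619). These 10 were picked by their ratios, so their values are a description. Among regions over a protein-coding start, the widest were at TPM4, a tropomyosin gene (4039 bp), PDZK1IP1 (3717 and 3682 bp) and SUB1, a coactivator gene (3681 bp). At SUB1 both libraries had 74 fragments, at summits 722 bp apart.

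**Figure D5:**
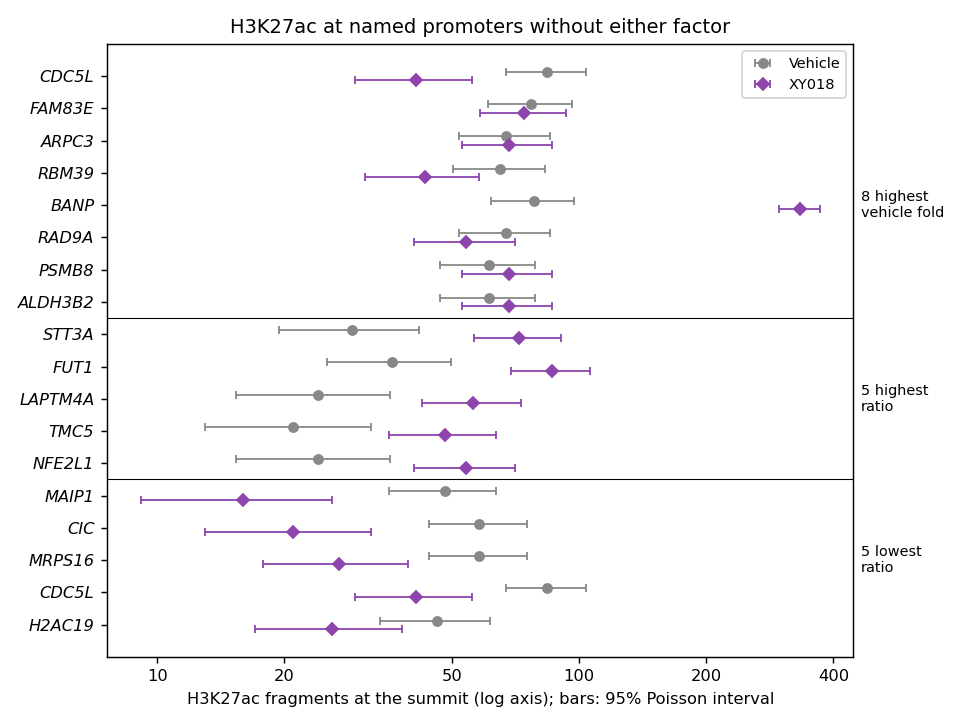
H3K27ac fragments at the summit (log axis) with vehicle (grey circles) and XY018 (purple diamonds) for the promoters without either factor that had the 8 highest vehicle folds, and the 5 highest and 5 lowest XY018 to vehicle ratios among summit-matched pairs of at least 60 fragments; bars are exact 95% Poisson intervals. CDC5L goes from 84 to 41 and STT3A from 29 to 72, while BANP stands apart at 333 with an XY018 summit 1051 bp from the vehicle one.

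Of the gene lists, histones had the lowest median ratio among lists with over 10 matched pairs, 0.931 over 29 pairs (range 0.604 to 2.12), with 12 above 1. Below that number of pairs, the cell cycle list had a lower median, 0.902 over 6 pairs, with 2 above 1. Cytosolic ribosomal protein genes had a median of 1.10 over 37 pairs, mitochondrial ribosomal ones 1.22 over 28, oxidative phosphorylation 1.22 over 21 and the proteasome 1.28 over 19, against 1.17 over 1436 pairs for all protein-coding genes without either factor. The S100, cornified envelope and kallikrein list had 1.11 over 14 and the interferon list 1.13 over 12.

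Factor calls at these promoters remained rare with XY018. SREBP2 was called at 139 (1.44%, 1.21 to 1.70) and RORγ at 221 (2.29%, 2 to 2.61), against 26.4% and 26.7% of all H3K27ac vehicle regions, a background that includes the regions already bound with vehicle. Acetylated regions without either factor outside promoters gave 1.49% and 2.62%. The factor lists themselves were shorter with XY018, with 69700 SREBP2 regions against 117441 with vehicle, and 129954 RORγ regions against 167264. In all, 6911 regions (71.7%) were acetylated and still without either factor, 2377 (24.7%) had lost the acetylation call with no factor gained, and 15 had both factors.

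Most of the factor regions called there with XY018 were weak. The 139 SREBP2 regions had a median fold of 3.26, against 4.52 over the whole XY018 list, and 10 of them (7.19%) passed q of 1e-05, against 46.2% of that list. The 222 RORγ regions had a median of 3.41 against 3.80, and 11 (4.95%) passed, against 26.2%. Of the SREBP2 regions 11 overlapped a vehicle SREBP2 region that lay beside the acetylated one, and of the RORγ regions 12 overlapped a vehicle RORγ region. The strongest SREBP2 calls were at RNMT, the mRNA cap methyltransferase gene (41 fragments, fold 13.8), ATXN7L1 (29), TRIM4 (30) and CENPJ, a centriole assembly gene (27). The strongest RORγ calls were at PUF60, a splicing factor gene (60 fragments, fold 28.8), TRIR (51), ACOT4, a peroxisomal thioesterase gene (48), and ALDH16A1 (28). At these 8 a vehicle region of the same factor lay 23 to 217 bp or 77 to 166 bp, respectively, from the acetylated region. Over all calls the distance was taken from the XY018 factor region instead. By that measure 96 of the SREBP2 and 151 of the RORγ regions had no vehicle region of the same factor within 1 kb.

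Seen from the other side, 12695 of 27704 acetylated promoters with XY018 lacked both factors of that treatment. Of these, 6180 overlapped a vehicle promoter without either factor, 1990 another acetylated promoter of vehicle and 4238 no vehicle H3K27ac region. With XY018 both factor lists were shorter and the H3K27ac list was longer, 105371 regions against 95099. The part of these list lengths in the counts was not tested.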

How the data were processed

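Members and gene lists were chosen with earlier results of these data known. Groups came from the labels, 1 library each; the 6 input libraries of the 12 samples were not used. According to the methods of the study, tags were aligned to hg19 with BWA (the submitters' processing notes name Bowtie2, and MACS2 2.1.0 for peaks), and uniquely mapped, deduplicated tags were used to call peaks in each library. The H3K27ac lists hold a part of longer call sets, by a rule not given in the sources read here. The authors deposited, for each peak, a fold ratio (pileup plus 1 over local background plus 1), −log10 p and −log10 q, and a display score, 10 times the −log10 p in nearly all rows, which was not used. XY018 dose is as labelled; the methods give a lower one.

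From the deposited fold and p, whole fragment numbers were recovered under the Poisson model of the caller, within 5% of the step between neighbouring numbers, for 98.7% to 100% of regions. Libraries held 3.65 to 6.16 tags per kb, with XY018 to vehicle ratios of 0.913 (H3K27ac), 1.07 (SREBP2) and 0.905 (RORγ). Overlap was at least 1 bp. GENCODE 44 starts (220349) and the GRCh37 genome were used with Python 3.11.15, pandas 2.3.3, SciPy 1.17.1 and samtools 1.23.1.

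Shares have exact Clopper-Pearson and fragments exact Poisson 95% intervals. Differences were averaged over 10 equal-sized classes of vehicle fold, weighted by members. For the XY018 share of fragments the classes were of the sum of both libraries' fragments instead. The calculation was tested on simulated data. A gene stands for its region's protein-coding start nearest to the summit. Named genes followed a fixed rule: the 8 highest folds, 4 widest, 5 highest and 5 lowest ratios with at least 60 fragments, 5 strongest lost, 4 strongest with each factor with XY018, and 2 at each edge; genes of lists and summit-matched pairs were named after their values were seen. Alternatives changed thresholds, overlap, starts, classes and pairing.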

Additional observations from a re-analysis of the deposited data

How the results depend on the processing

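The number of acetylated promoters without either factor was 9633, and it was 6392 with no factor within 1 kb, 4734 at Ensembl canonical starts and 12851 within 1 kb to either side of a start. Stricter factor thresholds gave 10255 and 11420. The kept share of 74.3% became 81.7% for members with q of at most 1e-05, 72.4% when 50% of the shorter region had to overlap, 73.2% with no factor within 1 kb, 75.2% over protein-coding starts and 71.9% with the XY018 list shortened to the vehicle length; with no factor in any start window, chosen after seeing the data, it was 73.4%. The SREBP2 share of 1.44% became 0.685% for XY018 regions with q of at most 0.01, 1.19% with 50% overlap and 1.16% with no factor within 1 kb. The RORγ share of 2.29% became 2% for members with q of at most 1e-05, and 0.799%, 1.91% and 1.63% under the same 3 settings.

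The difference in kept share, -0.304 points, became -19.1 with no classes and -9.86 with classes of width. It thus rests on comparing regions within the same class of fold. With summits within 200 bp as the overlap, chosen after seeing the data, it was -3.43 (-5.23 to -1.62), an interval that excludes 0. The median ratio of 1.19 became 1.30 and 2.08 with at least 40 and 80 fragments, 1.17 with the deposited fold and 1.15 with matched summits, added after seeing the data. The difference in XY018 share, 6.18 points, became 3.84 with no classes, 16 with at least 80 fragments and 1.87 with matched summits. Median GC was 57.8% at canonical protein-coding starts, an added setting, and the CpG-rich share was 27.5% within 250 bp, 32.1% at protein-coding and 71.0% at canonical starts. Of 10 motifs, 6 stayed more frequent than at co-bound promoters within 250 bp and at protein-coding starts, and 7 were at canonical ones. Of 16 gene lists, 11 lay above all genes and 10 did so by canonical starts, where the luminal list went from 0 to 7.69%. The causes were not tested beyond what each setting changes.

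No paired analysis was possible because each group held 1 library. Depth limits weak regions most: a member had a median of 15 fragments, and loss of a call at that level cannot be told apart from counting error in 1 library.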
